A study of Rattus norvegicus with 7 samples.

Results

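The mitochondrial carriers of the solute carrier 25 (Slc25) family were examined by 1-colour microarray in cerebellum from female Wistar rats aged 21 days. Members are genes whose symbol begins with Slc25a and that an array probe matched by accession. This gave 48 probes of 38 genes, out of 15443 genes with a matched probe, and 34 of the 38 were bright enough to be measured. CTRL pups (n = 4) were born to dams on a standard diet. MDD (methyl donor deficiency) pups (n = 3) were born to dams whose diet was poor in folate and vitamin B12 and held less choline. Both diets began 1 month before pregnancy and lasted until weaning at 21 days, so each pup met its diet through the dam. RNA came from ground whole cerebellum, and the labels give no dam or litter, so littermates among the replicates cannot be recognised and p-values measure only the spread between these pups.

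Slc25 proteins sit mostly in the inner mitochondrial membrane, where each moves a few small metabolites between cytosol and matrix, usually as an exchange. They supply ADP and phosphate for ATP synthesis, pass reducing equivalents through the malate-aspartate shuttle, bring in fatty acids as carnitine esters, and carry cofactors such as NAD and coenzyme A. Neurons rely on them for ATP and for handling glutamate, and one carrier brings S-adenosylmethionine, the methyl donor made through the folate and vitamin B12 cycles, into the matrix. The family is built in the cytosol and inserted into the inner membrane by a dedicated set of translocases.

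Neither the S-adenosylmethionine carrier Slc25a26 nor the choline carrier Slc25a48 had a matched probe, so both are not analysed here, and the same holds for 12 other symbols among the 52 family symbols of the RefSeq table. These include both aspartate/glutamate carriers, Slc25a12 and Slc25a13. Slc25a15, Slc25a41, Slc25a43 and Slc25a47 were well above background on 0 of 7 arrays and were not measured. Levels below are log2 intensities relative to the 75th percentile of the same array, so 0 is the brightness of a probe at that percentile, and levels of different probes cannot be compared. Differences are MDD minus CTRL.

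Of the 34 measured carriers, 4 were higher and 1 was lower in MDD cerebellum at an adjusted p under 0.05 (limma, Benjamini-Hochberg over 19991 genes and unnamed probes). The higher ones were the glycine carrier Slc25a38, the carnitine/acylcarnitine carrier Slc25a20, the oxoglutarate/malate carrier Slc25a11 and the iron carrier Slc25a28, and the lower one was the NAD carrier Slc25a51. Over everything tested, 12.7% were called higher and 7.72% lower, 20.4% in all. The family's shares were 11.8% and 2.94%, 14.7% in all, no larger than these background shares. An unadjusted p under 0.05 was reached by 15 members, or 44.1%, against 38.8% of all genes tested.

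Differences ran in both directions, from -0.52 for Slc25a51 to 0.85 for Slc25a34 among the 30 members above background on all arrays. Of all 34, 19 members were higher on average in MDD and 15 lower. The number higher was 15 with quantile normalization and 23 with normexp background correction. Of all genes tested 47.5% were higher on average. The median difference of the family was 0.098, against -0.028 over all genes tested. The sign of that median depended on the scaling, being -0.038 with quantile normalization and -0.023 after removal of the trend with gene length and signal. In 17 members the CTRL and MDD arrays did not overlap, 12 higher and 5 lower, or 50% against 36.5% of all genes tested (20.1% higher, 16.4% lower).

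**Figure D1:**
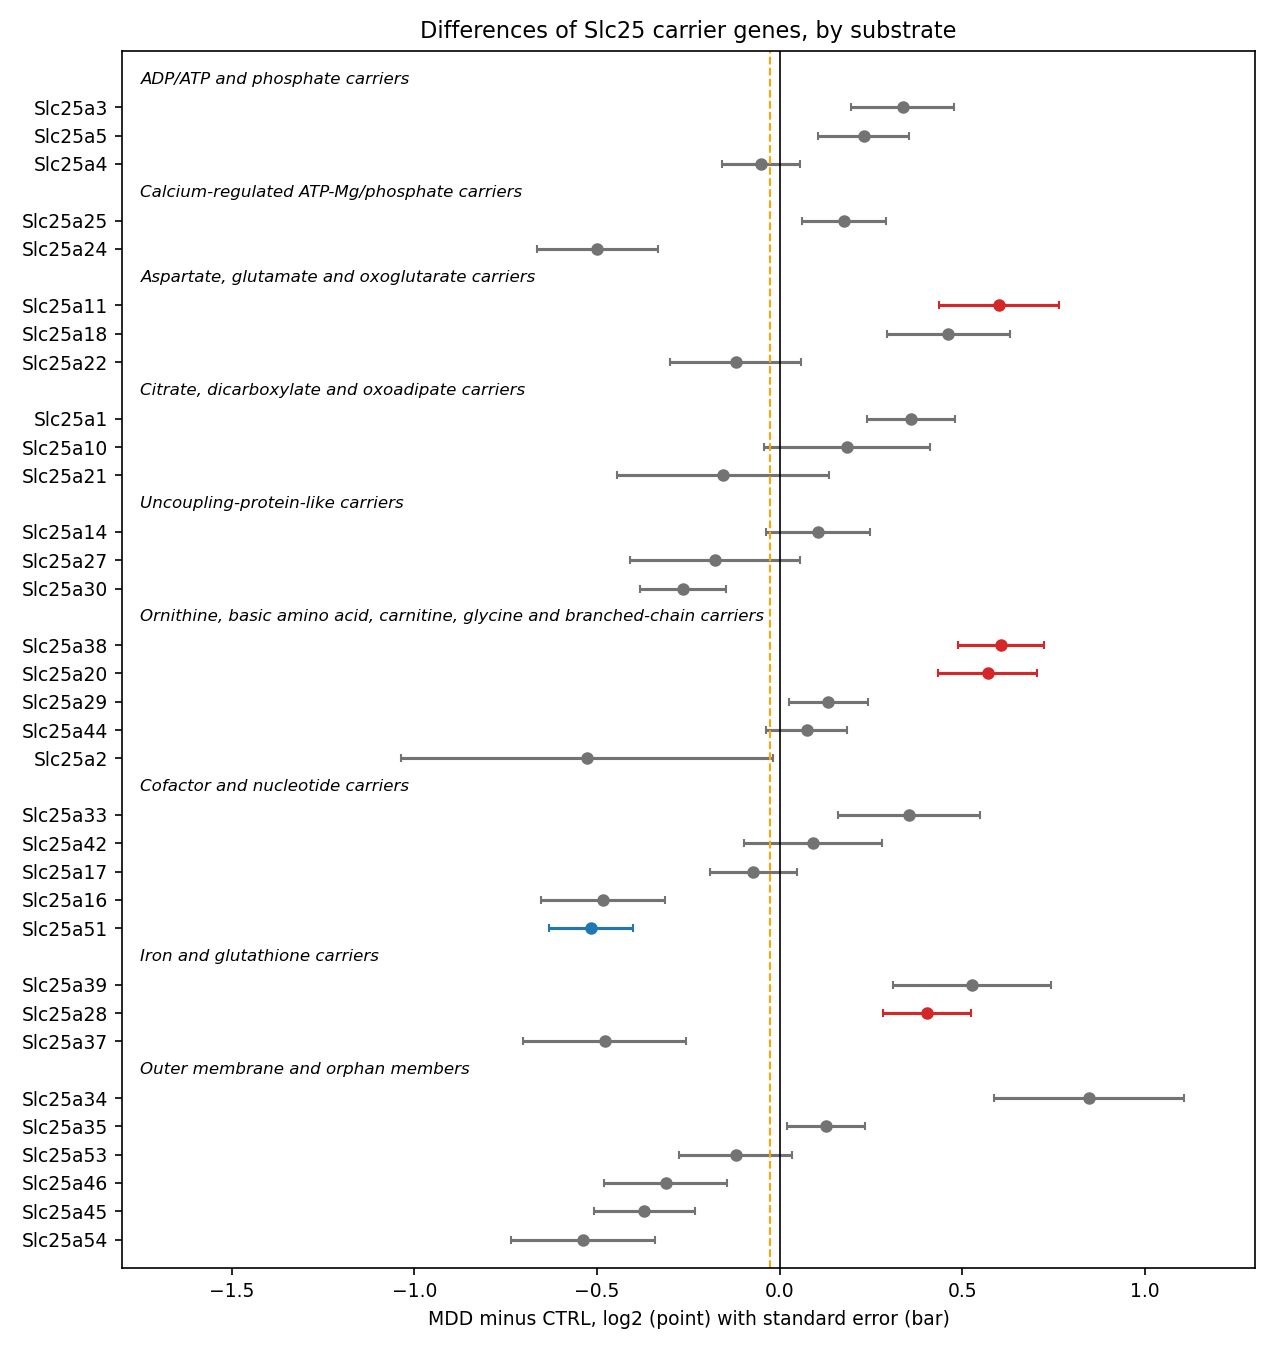
Each point is the MDD minus CTRL log2 difference of a measured Slc25 gene and each bar its standard error, grouped by the substrate carried; red points were called higher, blue lower, grey not called. The dashed line is the median of all genes tested (-0.028). The 4 red points lie between 0.40 and 0.61 and the blue one at -0.52.

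Slc25a38 brings glycine into the matrix for the first step of heme synthesis. Its level was -0.17, -0.023, -0.028 and -0.26 in CTRL and 0.48, 0.41 and 0.57 in MDD. All 3 MDD arrays lay above all 4 CTRL arrays, with a wide gap between the groups. The difference was 0.61 (SE 0.12), or 1.52-fold, with an adjusted p of 0.0152 (limma), the smallest of the family. Without CTRL replicate 4 the difference was 0.56 and the adjusted p 0.0540, and leaving out any other array kept the call (adjusted p 0.0164 to 0.0428).

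Slc25a20 exchanges long-chain acylcarnitines for free carnitine so that fatty acids reach beta-oxidation. Its level was -1.01, -0.79, -0.95 and -1.04 in CTRL and -0.21, -0.60 and -0.33 in MDD. The groups did not overlap. It rose by 0.57 (SE 0.14), or 1.48-fold, with an adjusted p of 0.0261 (limma). The call was lost without CTRL replicate 1, 3 or 4 (differences 0.55, 0.57 and 0.54) and without MDD replicate 1 or 3 (0.48 and 0.54), with adjusted p between 0.0549 and 0.0766.

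The other measured carriers of this group, which take amino acids, were not called. The basic amino acid carrier Slc25a29 differed by 0.13 (SE 0.11) and the branched-chain amino acid carrier Slc25a44 by 0.073 (SE 0.11), and a second, dimmer probe of Slc25a44 differed by -0.039. The ornithine carrier Slc25a2 differed by -0.53 (SE 0.51). Its signal cleared background on 3 of 4 CTRL and 1 of 3 MDD arrays, and the 95% interval ran from -1.69 to 0.64.

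Slc25a11 exchanges oxoglutarate for malate in the malate-aspartate shuttle. It stood at 1.72, 1.88, 1.87 and 1.77 in CTRL and at 2.31, 2.13 and 2.78 in MDD. MDD replicate 3 was the highest and the groups did not overlap. The difference was 0.60 (SE 0.17), or 1.52-fold, with an adjusted p of 0.0382 (limma). The call was kept without MDD replicate 2 (0.74) and lost when any other array was left out (0.41 without MDD replicate 3, 0.57 to 0.65 without the others). It was also lost under quantile normalization (0.39, adjusted p 0.0946), in the authors' deposited table (0.46, adjusted p 0.0516) and after removal of the trend with gene length and signal (0.13, adjusted p 0.467).

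The 2 mitochondrial glutamate carriers, Slc25a22 and Slc25a18, stood apart from each other in direction of the mean, without a call. Slc25a18, the form abundant in astrocytes, had levels of 1.42, 1.89, 1.90 and 1.98 in CTRL and 2.14, 2.17 and 2.47 in MDD. Its groups did not overlap, CTRL replicate 1 was the lowest, and the difference of 0.46 (SE 0.17) had an adjusted p of 0.0835 (limma). The summed level of 7 astrocyte and Bergmann glia markers ranged from 247 to 268 in CTRL and from 296 to 332 in MDD, in units of the 75th percentile, with 0 of the 7 called. The sum is carried mostly by the bright Aldoc probe (0.37), 4 markers were higher on average and 3 lower (Aqp4 -0.20, Slc1a3 -0.058, Slc1a2 -0.0092), and the median difference was 0.13. The part of these cells in the Slc25a18 values was not tested. In RNA from whole tissue, fewer cells of a type and less RNA per cell cannot be told apart. Slc25a22 differed by -0.12 (SE 0.18).

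Among the enzymes of the malate-aspartate shuttle, the malate dehydrogenases Mdh1 and Mdh2 and the aspartate aminotransferases Got1 and Got2 differed by 0.26, 0.36, 0.27 and 0.25 and were not called. The citrate carrier Slc25a1 differed by 0.36 (SE 0.12, adjusted p = 0.0659, limma), with groups that did not overlap. It was called in the authors' deposited table (0.35, adjusted p 0.0436, limma) and without MDD replicate 2. After removal of the trend with gene length and signal its difference was 0.12 with no call (adjusted p 0.43, limma). The differences of the dicarboxylate carrier Slc25a10 (0.18, SE 0.23) and the oxodicarboxylate carrier Slc25a21 (-0.15, SE 0.29) were within their errors.

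Slc25a51 imports NAD into the matrix and was the only member called lower. Its level was 1.12, 0.96, 0.89 and 1.02 in CTRL and 0.51, 0.38 and 0.55 in MDD, so that all MDD arrays lay below all CTRL arrays. It fell by 0.52 on the log2 scale (SE 0.115), or 1.43-fold, with an adjusted p of 0.0215 (limma). The call was lost when any 1 CTRL array was left out (-0.55 to -0.48, adjusted p 0.0519 to 0.0673) and kept without any 1 MDD array. The RefSeq table also lists Slc25a51l1 and Slc25a52, which had no matched probe, and whether the Slc25a51 probe reads them was not tested.

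The other measured cofactor and nucleotide carriers were not called. Slc25a16, linked to coenzyme A in the matrix, lay at 0.065, 0.053, 0.003 and 0.25 in CTRL and at -0.55, -0.002 and -0.62 in MDD, a difference of -0.48 (SE 0.17, adjusted p = 0.0742, limma). Here MDD replicate 2 lay just under the lowest CTRL array and the other MDD arrays far below. A dimmer probe of Slc25a16 differed by -0.65, also with groups that did not overlap. Slc25a16 was called lower in 2 of 12 other processing settings, the mean of all kept probes and eBayes with trend and robust. It was also called without MDD replicate 2. The coenzyme A carrier Slc25a42 (0.091, SE 0.19), the peroxisomal cofactor carrier Slc25a17 (-0.072, SE 0.12) and the pyrimidine nucleotide carrier Slc25a33 (0.35, SE 0.19) had intervals that included 0.

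Slc25a28, or mitoferrin-2, is the iron importer of most tissues other than the erythroid lineage. Its level was 1.86, 1.63, 1.65 and 1.70 in CTRL and 2.07, 2.02 and 2.25 in MDD. The groups did not overlap, and the closest arrays were CTRL replicate 1 and MDD replicate 2. The difference was 0.40 (SE 0.12), or 1.32-fold, with an adjusted p of 0.0480 (limma). Of 19 alternative settings 15 ended this call, against 13 for Slc25a11, 9 for Slc25a20, 8 for Slc25a51 and 4 for Slc25a38, while the 5 differences kept their sign in all of them. The call of Slc25a28 was lost on leaving out any 1 array other than MDD replicate 2 (0.33 to 0.45, adjusted p 0.0647 to 0.118), and also under quantile normalization (0.22, adjusted p 0.201), in the authors' deposited table (0.24, adjusted p 0.0982), and with the mean of both its probes (0.36, adjusted p 0.0914).

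The erythroid iron importer Slc25a37 (mitoferrin-1) was at -5.49, -5.63, -5.42 and -5.26 in CTRL and at -6.36, -6.06 and -5.38 in MDD, a difference of -0.48 (SE 0.22, adjusted p = 0.150, limma). MDD replicate 3 lay within the CTRL range. The difference of this dim probe was only -0.094 with normexp and -0.12 in the authors' deposited table. The glutathione carrier Slc25a39 differed by 0.53 (SE 0.22, adjusted p = 0.111, limma), with MDD replicate 3 at 1.12 far above the other MDD arrays at 0.24 and 0.38. Of 3 measured blood markers 0 were called. Hemoglobin Hbb differed by 0.81, the erythroid heme enzyme Alas2 by 0.56 and the leukocyte gene Ptprc by -0.49. The Ptprc groups did not overlap, but its probe was dim and cleared background on 2 of 3 MDD arrays. The summed level of the 3 blood markers, carried mostly by Hbb, ranged from 31.8 to 55.3 in CTRL and from 45.4 to 142 in MDD. The part of blood cells in the values of Slc25a38, Slc25a28, Slc25a37 and Slc25a39 was not tested.

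**Figure D2:**
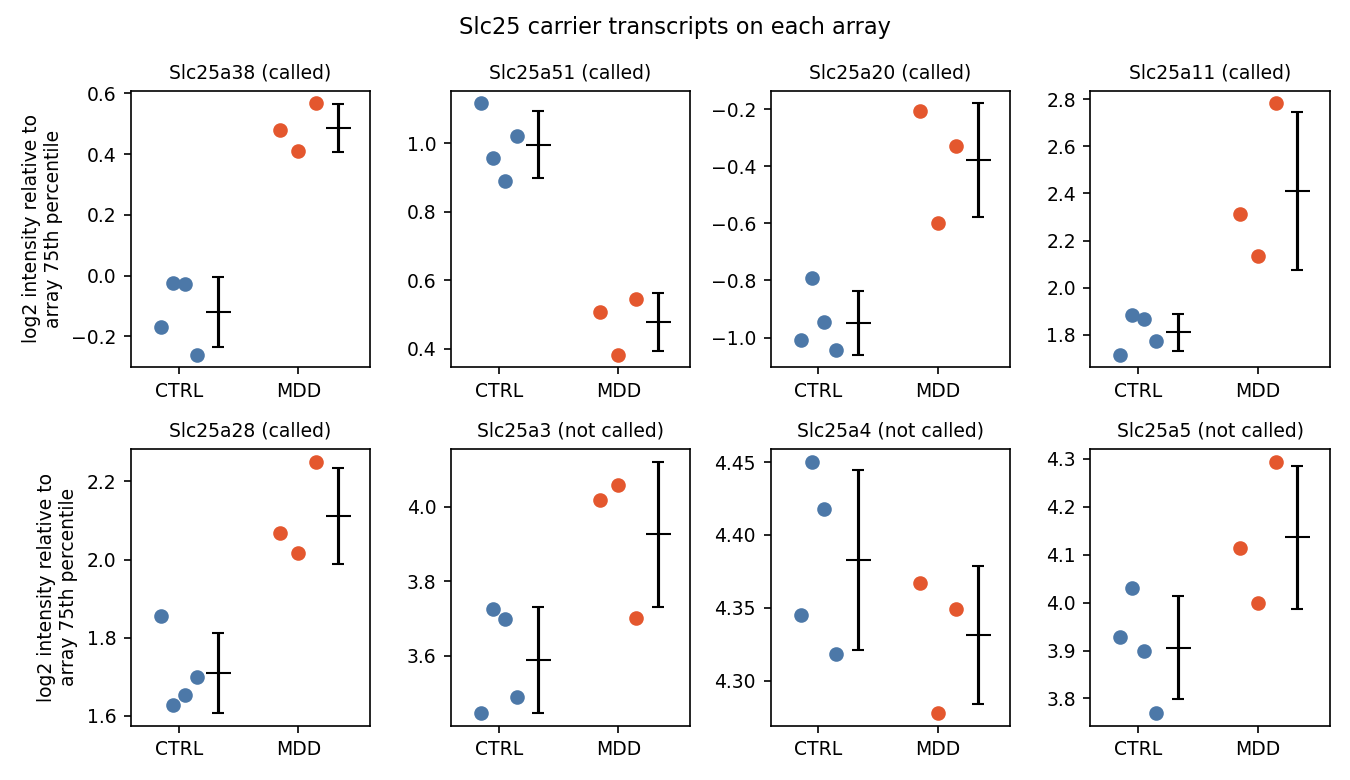
The log2 intensity of 8 carriers relative to the array's 75th percentile is shown for each CTRL (blue, n = 4) and MDD (orange, n = 3) array, with the mean and SD beside it; the vertical axes differ between panels. The 5 called genes have no overlap between groups, while Slc25a3, Slc25a4 and Slc25a5 overlap.

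The ADP/ATP exchangers and the phosphate carrier, which feed ATP synthase, gave 0 calls among 3 measured genes. Slc25a4, the ADP/ATP carrier of muscle and brain, was at 4.35, 4.45, 4.42 and 4.32 in CTRL and 4.37, 4.28 and 4.35 in MDD. The groups overlapped, and the difference was -0.051 (SE 0.11, 95% interval -0.30 to 0.19, adjusted p = 0.748, limma). Slc25a5, the form of dividing and many other cells, was at 3.93, 4.03, 3.90 and 3.77 in CTRL and 4.11, 4.00 and 4.29 in MDD, and the difference was 0.23 (SE 0.13, adjusted p = 0.207, limma).

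Slc25a3, the phosphate carrier, was at 3.45, 3.73, 3.70 and 3.49 in CTRL and 4.02, 4.06 and 3.70 in MDD. MDD replicates 1 and 2 exceeded every CTRL array and MDD replicate 3 did not, and the difference was 0.34 (SE 0.14, adjusted p = 0.116, limma). The values of these 3 bright probes depended on how arrays were scaled. Under quantile normalization, in the authors' deposited table and after removal of the trend with length and signal, Slc25a4 was called lower (-0.53, -0.47 and -0.60, with adjusted p of 0.0218, 0.0127 and 0.0241, limma). Slc25a5 (-0.24, -0.12 and -0.34) and Slc25a3 (-0.072, -0.050 and -0.056) changed sign under the same settings without a call. No direction for these genes held over the settings run.

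**Figure D3:**
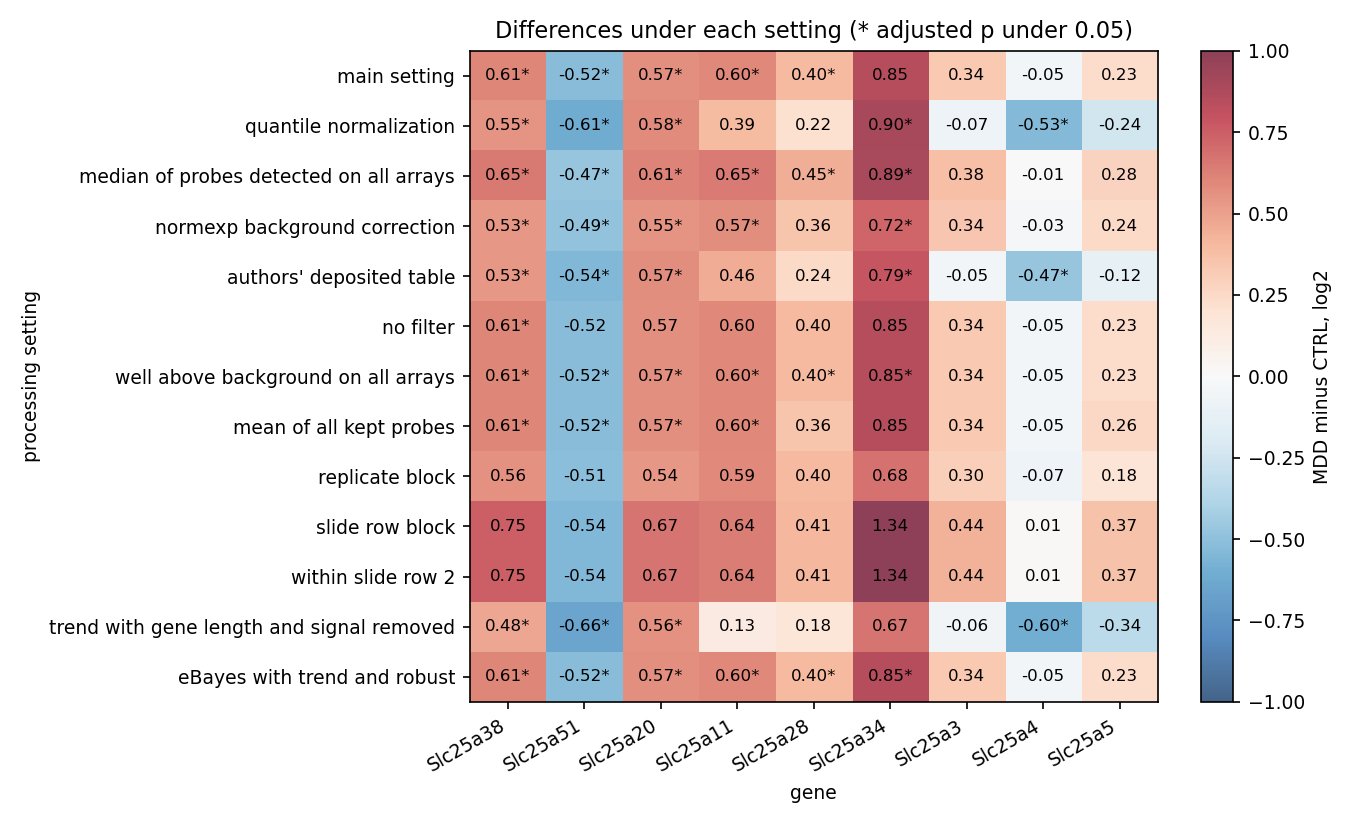
Each cell gives the MDD minus CTRL log2 difference of a carrier (columns) under a processing setting (rows), coloured from blue (lower) to red (higher), with colour limited to -1 and 1; a star marks an adjusted p under 0.05. Slc25a38, Slc25a51, Slc25a20, Slc25a11, Slc25a28 and Slc25a34 keep their direction in every row. Slc25a3 and Slc25a5 change colour under quantile normalization, the authors' table and trend removal, and Slc25a4 is just above 0 in the slide row fits (0.013).

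The calcium-regulated carriers of ATP-Mg and phosphate, which adjust the adenine nucleotide pool of the matrix, gave 0 calls. Slc25a24 stood at -2.42, -1.79, -2.03 and -1.86 in CTRL and -2.45, -2.53 and -2.60 in MDD. The MDD arrays were all lower, with CTRL replicate 1 close to them, and the difference was -0.50 (SE 0.17, adjusted p = 0.0643, limma). Slc25a25 differed by 0.17 (SE 0.11, adjusted p = 0.289, limma), with groups that did not overlap.

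The carriers that resemble uncoupling proteins also gave 0 calls among 3. Slc25a14 differed by 0.11 (SE 0.14), Slc25a27, which cleared background on 2 of 3 MDD arrays, by -0.18 (SE 0.23) and Slc25a30 by -0.26 (SE 0.12). Among 6 outer membrane and orphan members, Slc25a34, whose substrate is not settled, had the largest difference of the family. Its level was -1.60, -2.46, -2.12 and -2.72 in CTRL and -1.11, -1.60 and -1.42 in MDD. CTRL replicate 1 almost met the lowest MDD array, and the other CTRL arrays were well below. The difference was 0.85 (SE 0.26) with an adjusted p of 0.0519 (limma), just short of a call. It was called in 6 of 12 other processing settings and without CTRL replicate 1 (1.05), and within slide row 2 the difference was 1.34 with no call.

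Slc25a46, an outer membrane protein of mitochondrial dynamics whose loss causes optic and cerebellar degeneration, differed by -0.31 (SE 0.17, adjusted p = 0.202, limma). MDD replicate 3 was its lowest array at 1.82, and the CTRL arrays lay from 2.40 to 2.63. The orphan carriers Slc25a45 (-0.37, SE 0.14), Slc25a54 (-0.54, SE 0.20), Slc25a35 (0.13, SE 0.11) and Slc25a53 (-0.12, SE 0.15) were not called. The signal of Slc25a54 cleared background on 2 of 3 MDD arrays, its difference being 0.0019 in the authors' deposited table and 0.047 with normexp. For Slc25a45, also dim, the difference was -0.088 in the authors' deposited table and -0.067 with normexp.

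**Figure D4:**
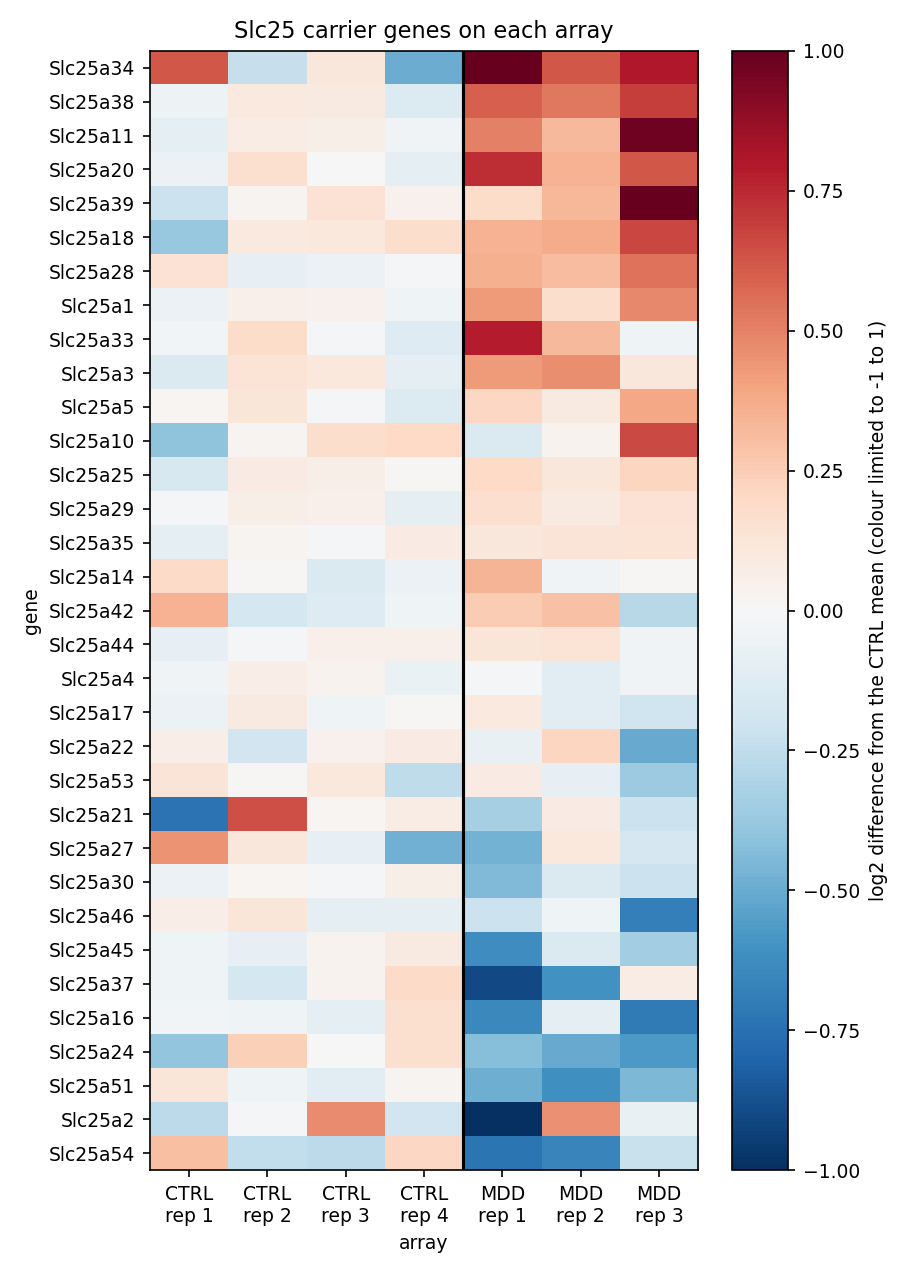
Each row is a measured Slc25 gene and each column an array; colour is the log2 difference from the gene's CTRL mean, limited to -1 and 1. Rows are ordered by the MDD minus CTRL difference, and MDD replicates 1 and 3 hold most of the strongest colours.

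The MDD arrays differed among themselves. MDD replicate 3 was the farthest of the 3 from the CTRL mean in 17 members, replicate 1 in 12 and replicate 2 in 5. The median SD of a member was 0.11 in CTRL and 0.21 in MDD, and the SD was larger in MDD for 22 of 34 members, or 64.7%, against 72.3% of all genes tested. All arrays came from 1 slide and 1 scan time. Row 1 of the slide held CTRL replicates 1 to 3 and row 2 held CTRL replicate 4 with all MDD arrays, so that most of the comparison lies between rows. Within row 2 the differences of Slc25a38, Slc25a51, Slc25a20, Slc25a11 and Slc25a28 were 0.75, -0.54, 0.67, 0.64 and 0.41, with 1 CTRL array. No member was called there or with the row as a block. Over all genes tested, 0.035% and 0.0050% were called in these fits, and their smallest adjusted p among the 5 genes were 0.415 and 0.138.

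Pairs of related carriers were compared by their log2 ratio within each array, which cancels any scaling that is shared by the array. With 35 ways to divide 7 arrays into 4 and 3, the smallest p of the exact permutation test is 0.0286, and p-values were adjusted over 5 pairs. The ratio of Slc25a28 to Slc25a37, the ubiquitous and the erythroid iron importer, was 7.35, 7.26, 7.07 and 6.96 in CTRL and 8.43, 8.07 and 7.63 in MDD. No array overlapped, and the ratio was higher by 0.88 in MDD (exact permutation p = 0.0286, adjusted p = 0.0714, two-sided). The change was smaller under quantile normalization (0.53), with the trend removed (0.48), with normexp (0.45) and in the authors' deposited table (0.37).

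For the ADP/ATP carriers the ratio of Slc25a4 to Slc25a5 was 0.42, 0.42, 0.52 and 0.55 in CTRL and 0.25, 0.28 and 0.055 in MDD. It was lower in all 3 MDD arrays, by -0.28 (exact permutation p = 0.0286, adjusted p = 0.0714, two-sided). This lower ratio kept its sign under quantile normalization (-0.30) and in the authors' deposited table (-0.34). The ratio of Slc25a16 to Slc25a42 differed by -0.57 (exact permutation p = 0.0571, adjusted p = 0.0952) and that of Slc25a22 to Slc25a18 by -0.58 (exact permutation p = 0.0857, adjusted p = 0.107). That of Slc25a14 to Slc25a27 differed by 0.28 (exact permutation p = 0.429, adjusted p = 0.429). None of the 5 pairs passed the threshold after adjustment.

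Start-site windows of the 3 members with the smallest p are printed to show the sequence around the start of genes that moved in opposite directions. They are RefSeq windows of build GRCr8, from 250 bases before to 50 after the start, 5′ to 3′ on the gene's strand. Slc25a38 lies at chr8:128712930-128713229 on the plus strand, Slc25a51 at chr5:64458955-64459254 on the minus strand and Slc25a20 at chr8:118243323-118243622 on the plus strand. Capitals mark matches to the core of NRF1, a factor known for driving nuclear genes of mitochondrial proteins.
Slc25a38: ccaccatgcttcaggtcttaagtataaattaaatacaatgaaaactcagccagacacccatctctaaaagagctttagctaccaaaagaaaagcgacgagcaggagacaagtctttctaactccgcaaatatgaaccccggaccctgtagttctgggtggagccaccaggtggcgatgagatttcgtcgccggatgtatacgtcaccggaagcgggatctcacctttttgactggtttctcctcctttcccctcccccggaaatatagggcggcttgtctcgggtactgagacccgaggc
Slc25a51: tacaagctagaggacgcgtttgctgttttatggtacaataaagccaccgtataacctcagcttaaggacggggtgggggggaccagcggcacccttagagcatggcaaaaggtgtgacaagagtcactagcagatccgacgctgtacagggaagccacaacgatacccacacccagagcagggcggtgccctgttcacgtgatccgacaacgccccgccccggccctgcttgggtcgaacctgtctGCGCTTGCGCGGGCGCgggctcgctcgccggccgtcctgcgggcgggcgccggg
Slc25a20: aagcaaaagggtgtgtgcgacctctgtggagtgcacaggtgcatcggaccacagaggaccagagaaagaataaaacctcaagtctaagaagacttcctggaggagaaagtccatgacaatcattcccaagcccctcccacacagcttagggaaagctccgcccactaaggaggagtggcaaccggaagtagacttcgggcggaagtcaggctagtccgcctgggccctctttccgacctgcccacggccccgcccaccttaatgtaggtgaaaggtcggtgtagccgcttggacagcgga

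The core searched was GCGC, any pair of bases and GCGC again, which reads the same on both strands. The element of the estrogen-related receptors (ERR), TCAAGGTCA, was searched on both strands. In the Slc25a51 window 2 core matches overlap, and the windows of Slc25a38 and Slc25a20 hold none. Of 30 measured members with a window, 2 held the NRF1 core, Slc25a51 and Slc25a10, or 6.67%. The share was 5.58% of all 33469 windows and 11.5% of 9784 windows of measured named genes. The ERR element was in 0 members, 0.433% of all windows and 0.225% of those of measured genes. The median window of a member held 19.5 CpG, that of a measured named gene 19 and that of all windows 7. The windows of Slc25a38, Slc25a51, Slc25a20, Slc25a11 and Slc25a28 held 15, 28, 13, 26 and 23 CpG, while Slc25a34 held 3 and Slc25a18 held 2.

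**Figure D5:**
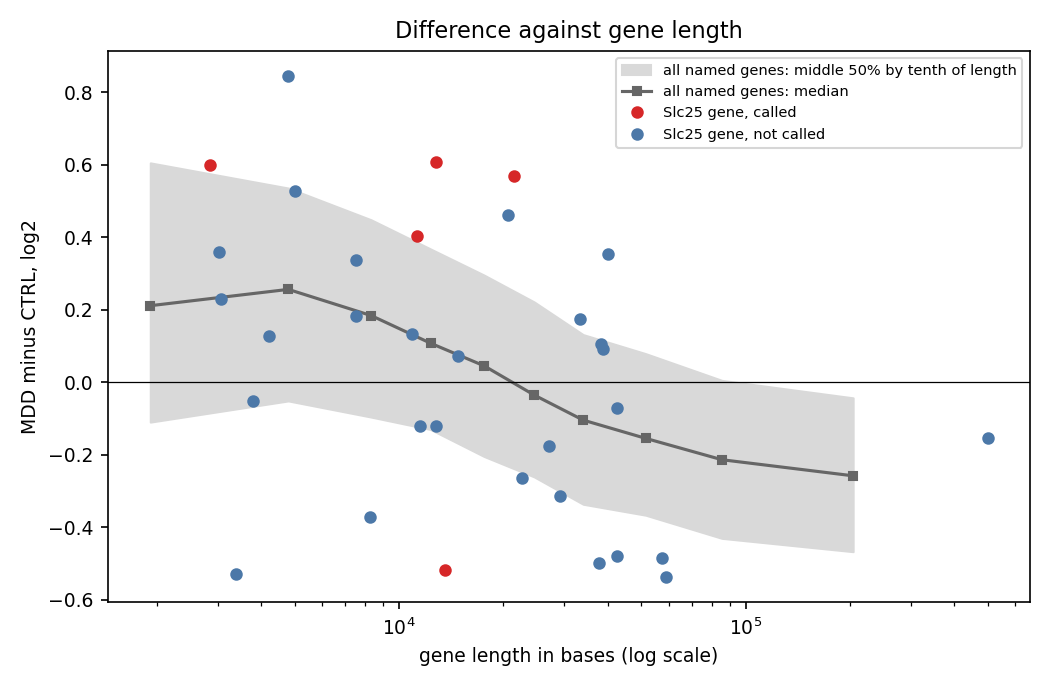
The MDD minus CTRL log2 difference (vertical axis) is plotted against gene length in bases (log scale) for the Slc25 genes, red where called and blue where not; squares give the median and the band the middle 50% of all named genes in 10 bins of length. The family follows the downward course of the band. Among called genes Slc25a51 lies far below it at its length, and uncalled ones such as Slc25a2 (-0.53) and Slc25a45 (-0.37) also lie below it.

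Gene length ran with the difference over all named genes, and the carriers shared that course. Spearman's rho between length and difference was -0.43 across 34 members and -0.40 across 11966 named genes, as a description across genes, which are not independent and share the same 7 arrays. Carrier genes are short, with a median length of 13344 bases against 20850, and 20 of the 34 were shorter than the median named gene. Slc25a11 at 2852 bases lies in a bin of length whose median difference was 0.21. Slc25a51 at 13563 bases lies in one whose median was 0.11, opposite in sign to its own difference of -0.52. With the trend in length and signal removed, Slc25a38 (0.48), Slc25a20 (0.56) and Slc25a51 (-0.66) were called, and Slc25a11 (0.13) and Slc25a28 (0.18) were not.

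Of 16 listed genes that import carriers and insert them into the inner membrane, 12 were measured. Among these 12, 5 were called higher and 0 lower, all 5 of the outer membrane or intermembrane space. That is 41.7% higher against 12.7% of all genes tested, with a median difference of 0.38 against -0.028. The 12 genes are short, with a median length of 4716 bases. Named genes of that length bin had a median difference of 0.26 and 26.7% called in either direction. Tomm7, a small subunit of the outer membrane translocase, rose from 2.80 ± 0.11 (SD, n = 4) to 3.89 ± 0.23 (SD, n = 3), by 1.09 (SE 0.14, adjusted p = 0.00964, limma). The intermembrane chaperones that escort carriers also rose, Timm13 by 0.999 (SE 0.22), Timm10 by 0.78 (SE 0.12) and Timm10b by 0.61 (SE 0.13), as did the receptor Tomm22 by 0.64 (SE 0.13), with adjusted p from 0.0106 to 0.0205. Tomm70, the receptor that carriers bind at the outer membrane, differed by -0.15 and was not called.

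The calls of Timm10b, Timm13 and Tomm22 were lost without CTRL replicate 3 (adjusted p 0.0502 to 0.0523) or 4 (0.0555 to 0.0614), that of Timm13 also without CTRL replicate 1 (0.0521). After removal of the trend with length and signal the differences were 0.22, 0.40 and 0.22 with no call. Tomm22 differed by 0.34 with no call under quantile normalization. Tomm7 and Timm10 kept their calls in all of these, at smaller differences of 0.70 and 0.36 after removal of the trend and 0.73 and 0.62 under quantile normalization.

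Partners of the ADP/ATP carriers included 3 called higher among 7, or 42.9% against 12.7% of all genes tested. The median difference of the 7 was 0.064 against -0.028. The mitochondrial creatine kinase Ckmt1, which turns exported ATP into phosphocreatine, rose by 0.83 (SE 0.17, adjusted p = 0.0160, limma), though by 0.46 with no call after removal of the trend. The cytosolic creatine kinase Ckb differed by 0.49 (SE 0.15, adjusted p = 0.0469), and turned to -0.13, -0.032 and -0.16 under quantile normalization, in the authors' deposited table and after removal of the trend. Leaving out any 1 array other than MDD replicate 2 ended the call of Ckb (0.39 to 0.56), and leaving out CTRL replicate 4 ended that of Ckmt1 (0.83, adjusted p 0.0516). Among SLC25-fold proteins with other names, the outer membrane protein Mtch1 was the only one called of 4, higher by 0.69 (SE 0.13, adjusted p = 0.0151), but by 0.084 and 0.14 with no call under quantile normalization and in the authors' deposited table.

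Cpt2, which releases fatty acids from the carnitine that Slc25a20 carries, was the only called carnitine gene of 5, higher by 0.43 (SE 0.12, adjusted p = 0.0418, limma), a call lost on leaving out any 1 array other than MDD replicate 2 (0.36 to 0.46), after removal of the trend (0.38, adjusted p 0.0589) and with no filter (adjusted p 0.0877). The plasma membrane carnitine transporter Slc22a5 differed by -0.40 and the outer carnitine palmitoyltransferase Cpt1a by 0.41, both uncalled. The related lists of other mitochondrial transport genes gave single calls, where 20.4% of all genes tested were called in either direction. The sideroflexin Sfxn2 fell from -3.66 ± 0.30 (SD, n = 4) to -4.68 ± 0.21 (SD, n = 3), a difference of -1.02 (adjusted p = 0.0132) that was -0.60 both with normexp and in the authors' deposited table, and was the only called gene among 7 pyruvate carrier subunits and sideroflexins. Micu3, a neuronal regulator of the calcium uniporter, was the only called gene among 8 calcium uniporter and outer membrane channel genes, at -0.72 (SE 0.16, adjusted p = 0.0204). It was not called without CTRL replicate 4 (-0.67) or MDD replicate 1 (-0.62), nor after removal of the trend (-0.50, adjusted p 0.0526). The uniporter itself, Mcu, differed by -0.017.

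Cell type markers were read on the same arrays, and all listed granule neuron, Purkinje cell, astrocyte and oligodendrocyte markers were measured. Their counts below stand against 12.7% of all genes called higher and 7.72% called lower. Of 8 granule neuron markers 1 was called higher (Calb2, 0.54) and 3 lower, among them Gabra6 at -0.74. On average 7 of the 8 were lower, with a median difference of -0.37. Their summed level, weighted towards bright probes such as Neurod1 (-0.38) and Calb2, was 62.2 to 72.3 in CTRL and 54.2 to 75.5 in MDD. Of 8 microglia markers 6 were called higher and 1 lower, with a summed level of 9.02 to 9.62 in CTRL and 12.9 to 17.9 in MDD. The sums of Purkinje cell and endothelial markers were also higher in every MDD array (182 to 206 against 210 to 266, and 1.99 to 2.24 against 2.69 to 3.64), with 2 of 8 and 1 of 5 called higher and 2 and 0 lower. Of 6 oligodendrocyte markers 0 were called higher and 1 lower (Mobp, -0.57), with sums of 246 to 266 in CTRL and 233 to 361 in MDD. Of 5 choroid plexus markers 0 were called (Ttr 0.72), with sums of 96.7 to 132 against 113 to 270, and of 5 meningeal markers 0 were called, with sums of 7.05 to 12.4 against 10.8 to 10.9. The part of these cell types in the carrier differences was not tested.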

How the data were processed

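Total RNA from ground cerebellum was amplified and labelled with Cy3 per the labels' protocols, and hybridised to 1-colour Agilent arrays. Per the file headers, the deposited scanner tables hold linear intensities made with Feature Extraction 10.7.3.1 on a grid of the rat assembly rn4, background-subtracted within an array and not normalized between arrays, and the scanner software scored flags as 0 or 1, also per the file headers. The authors' deposited table holds normalized linear intensity values by a method not given in the sources used here, with columns that show the group only.

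Levels are log2 of the processed signal, from which the array's own 75th percentile (1140 to 2105 intensity units) was taken, without control or outlier spots, averaged per probe. Of 58717 spots per array, 74.1% to 79.6% were well above background and 0 were saturated, and 7 arrays limit the precision. Probes whose signal cleared background on 3 or more of the 7 arrays were retained, an array counting where 50% or more of the spots did. The scanner tables pair probes with accessions, which were matched without version to a RefSeq table (GRCr8), and the brightest kept probe stood for a gene. MDD was tested against CTRL in R 4.3.3 by lmFit and eBayes of limma 3.58.1, two-sided, across 19991 genes and unnamed probes, with a threshold of 0.05. Scripts were tested on simulated data.

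Members and lists were chosen with earlier results of these data known. Every measured member could be named, with array values for those called and for some that were not, whatever their p. From each related list the members that passed could be named, up to 6 by smallest p. Some genes that this rule names, and 1 symbol of the family, are not reported here. The alternative settings were scaling by the median of always-detected probes, quantile normalization, normexp (offset 50, on median spot signal in place of the mean signal that had been planned), the authors' table, no filter, a filter on all arrays, the mean of all kept probes, replicate and slide row blocks, row 2 alone, removal of a loess trend with length and signal (span 0.5, named genes only), eBayes with trend and robust, and leaving out each array.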

Additional observations from a re-analysis of the deposited data

Results flagged for a closer look

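In 2 of 34 measured carriers, both glutamate carriers, 1 CTRL array stood apart from the other 3. Slc25a18 was at 1.418 in CTRL replicate 1, while the others lay between 1.894 and 1.975, and the gap was 0.855 of the group's range. Slc25a22 was at 2.678 in CTRL replicate 2, with the nearest array at 2.911 and the farthest at 2.957, a gap of 0.837 of the range. Both exceed Dixon's 95% limit for 4 arrays, which chance passes in about 1 of 20 groups. MDD groups of 3 were not examined this way.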

How the results depend on the processing

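The calls were limited by 7 arrays and by a slide layout with 1 CTRL array in the row of the MDD arrays. Against 4 carriers called higher and 1 lower, quantile normalization gave 4 and 2, the authors' deposited values 5 and 2, the mean of all kept probes 3 and 2, the trend with length and signal removed 2 and 2, eBayes with trend and robust 6 and 2, and no filter 1 and 0. The replicate block gave 0 and 0, as did the slide row block and row 2 alone. In the block and row fits almost no gene of the whole table was called (0% with the replicate block), and deviations of same-numbered arrays correlated at 0.0947, -0.179 and 0.223, so the numbers were not taken to pair samples. Leaving out 1 array gave 0 to 5 higher and 0 to 3 lower, with 0 and 0 without CTRL replicate 4 and 5 and 3 without MDD replicate 2, and family medians of 0.074 to 0.12. The family median of 0.098 was -0.038 with quantile normalization, 0.0067 in the authors' table and -0.023 with the trend removed. With normexp, 11.8% of all genes were higher and 4.45% lower, against 12.7% and 7.72%. The cause of these shifts was not tested.

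In the authors' table, 3 of the ratios passed (adjusted p = 0.0476 each, exact permutation), Slc25a22 to Slc25a18 at -0.72, Slc25a28 to Slc25a37 at 0.37 and Slc25a4 to Slc25a5 at -0.34. In row 2 the ratio of Slc25a14 to Slc25a27 was -0.14, against 0.28.

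Signs of uncalled members turned as follows. Quantile normalization turned Slc25a14 to -0.022, Slc25a21 to 0.0052, Slc25a25 to -0.051, Slc25a3 to -0.072, Slc25a44 to -0.11 and Slc25a5 to -0.24. The authors' table turned Slc25a21 to 0.011, Slc25a3 to -0.050, Slc25a44 to -0.054, Slc25a5 to -0.12 and Slc25a54 to 0.0019. Normexp turned Slc25a2 to 0.030, Slc25a21 to 0.072, Slc25a27 to 0.037 and Slc25a54 to 0.047. Removing the trend turned Slc25a10 to -0.0085, Slc25a21 to 0.17, Slc25a3 to -0.056, Slc25a35 to -0.027, Slc25a44 to -0.095 and Slc25a5 to -0.34. The slide row block and row 2 alone turned Slc25a10 to -0.015, Slc25a27 to 0.31, Slc25a4 to 0.013 and Slc25a53 to 0.13. When 1 array was left out, Slc25a10 ranged from -0.056 (without MDD replicate 3) to 0.35, Slc25a22 from -0.29 to 0.072 and Slc25a53 from -0.22 to 0.00079 (both highest without MDD replicate 3), Slc25a14 from -0.010 (without MDD replicate 1) to 0.18, Slc25a2 from -1.02 to 0.19 (without MDD replicate 1), Slc25a42 from -0.011 (without MDD replicate 2) to 0.27 and Slc25a21 from -0.40 to 0.061 (without CTRL replicate 2). The called Ckb turned to -0.13 with quantile normalization, -0.032 in the authors' table and -0.16 with the trend removed.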
